A study of Homo sapiens with 9 samples.

Results

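The 7 genes described here build or shape caveolae, the small flask-shaped pits of the plasma membrane: the caveolins CAV1 and CAV2, the cavins CAVIN1, CAVIN2 and CAVIN3, and the neck proteins EHD2 and PACSIN2. They were taken by gene symbol from the 58884 genes of the count table. RNA-seq was performed in MDA-MB-231, a claudin-low human breast cancer cell line (referred to as Par), and in the sub-populations LM2 and BrM2, which were derived from it by selection in mice and colonize the lung (LM2) or the brain (BrM2) more readily. All 3 lines were grown as monolayers for 3 days in DMEM with serum, penicillin and streptomycin, without a further treatment. Each line had 3 biological replicates, harvested at different passages, which makes 9 libraries. A line is thus represented by 1 cell population, and the p-values below cover the spread between passages of that population. In these bulk libraries, fewer cells expressing a gene and less RNA per cell cannot be told apart.

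Caveolins insert into the inner leaflet of the plasma membrane as oligomers, and cavins form a coat around them. CAV1 is needed for caveolae outside striated muscle, and CAV2 is a partner of CAV1 that is retained in the Golgi in its absence. CAVIN1 is the cavin that caveola formation depends on, whereas CAVIN2 and CAVIN3 join the coat through it and shape its curvature and its traffic. EHD2 is an ATPase that oligomerizes at the neck and holds caveolae at the cell surface, and PACSIN2 is an F-BAR protein that bends the membrane there. Caveolae buffer membrane tension and take part in lipid uptake and receptor signaling, and they are abundant in endothelial cells, adipocytes, fibroblasts and muscle.

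Counts on genes totaled 19878879 to 23948742 per Par library, 23581487 to 24511786 per LM2 library and 14371858 to 22055215 per BrM2 library. The cells expressed the keratins KRT7, KRT8 and KRT18 and the mesenchymal genes VIM, FN1 and ZEB1. The epithelial gene EPCAM had means of 4.82 to 7.17 CPM (CPM relates each count to the size of its library after TMM normalization). Both cadherins were low in every line. The epithelial CDH1 was at a mean of 1.2 CPM or less and the mesenchymal CDH2 at 0.504 CPM or less. Markers of other caveola-rich cells were low. The summed level of 3 adipocyte markers was at most 0.979 CPM in any library, with ADIPOQ at 0 counts throughout. That of 3 endothelial markers was at most 7.39 CPM, mostly PECAM1, which had 39 to 183 counts per library. The 3 muscle markers summed to at most 4.42 CPM.

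All 7 genes were detected in every library, and all passed the low-count filter. CAV1 and CAVIN1 were among the most abundant transcripts, with a mean CPM above that of 99.2% and 99.1% of the 13055 genes tested. CAVIN3 was the least abundant, with 26 to 173 counts per library, above 17% of the genes tested. The relatives used in striated muscle were close to absent. CAV3 did not pass the filter, with means of 0.424, 0.39 and 0.214 CPM in Par, LM2 and BrM2, and CAVIN4 had means of 1.67 to 1.78 CPM.

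To compare levels between genes, CPM were divided by the length in kilobases of the MANE Select transcript, the representative transcript of each gene. In Par cells the order per kilobase was CAV1 at 461 ± 49.5 CPM per kb (SD, n = 3), CAVIN1 at 201 ± 55.1, CAV2 at 78.4 ± 5.77, PACSIN2 at 45.0 ± 6.69, EHD2 at 42.4 ± 6.97, CAVIN2 at 13.0 ± 3.49 and CAVIN3 at 5.64 ± 3.21. PACSIN2 and EHD2, next to each other in this order, differed by less than their spread. The order depended on the length used. Divided by the length of all annotated exons of the gene, the Par means were 293 CPM per kb for CAV1, 201 for CAVIN1, 38.7 for EHD2, 35.2 for CAV2 and 32.1 for PACSIN2, so that CAV2 no longer stood above the neck proteins. In BrM2 cells CAVIN1 was at 260 ± 73.6 CPM per kb and CAV1 at 233 ± 48.5 by the representative transcript. These 2 means also differed by less than their spread. Replicate 1 had the highest CAVIN1 level of the BrM2 libraries, at 1230.3 CPM, and the lowest CAV1 level, at 442 CPM. CAV1 in BrM2 was at 148 CPM per kb by all exons, where CAVIN1 keeps its value. CAVIN3 had the lowest mean of the 7 genes in each line by either length.

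**Figure D1:**
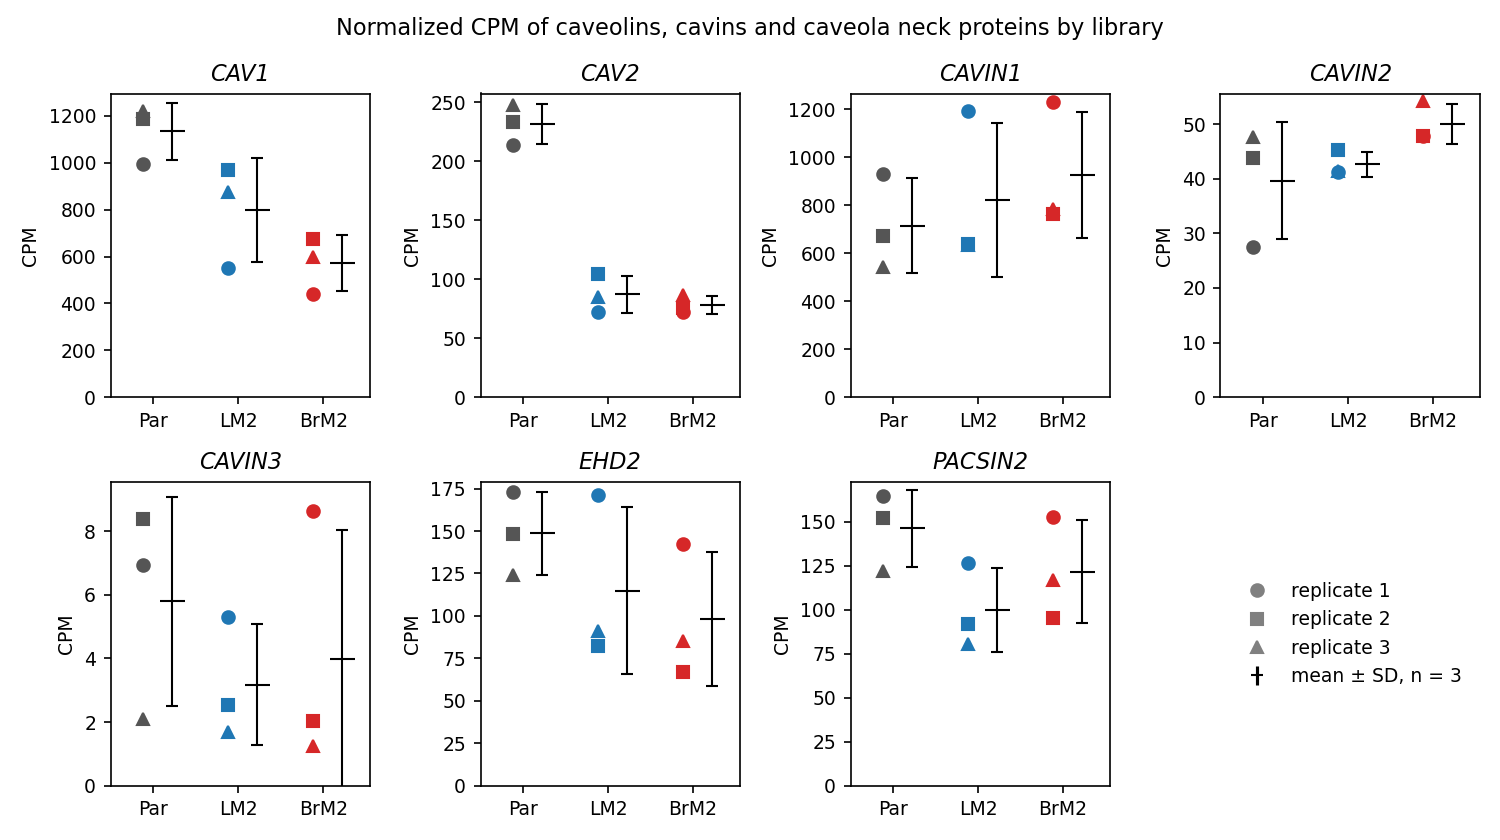
Normalized CPM (y axis, linear, from 0) of the 7 genes in the 9 libraries, by line (x axis); symbols give the replicate number and black marks the mean ± SD of 3 libraries. CAV1 and CAV2 are higher in every Par library than in every LM2 and BrM2 library, while CAVIN1, EHD2 and PACSIN2 have replicate 1 (circles) on top in each line.

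The caveolin genes are neighbors on the long arm of chromosome 7. In GRCh38.p14, CAV2 lies at chr7:116499738-116508541 and CAV1 at chr7:116525009-116561185, both on the plus strand, and 16468 bases separate the end of CAV2 from the start of CAV1. The 250 bases before each gene start are shown because both transcripts were less abundant in BrM2 than in Par. Capitals mark the GC box, GGGCGG or its reverse complement CCGCCC. The sequences are from RefSeq, and the windows are chr7:116524759-116525008 for CAV1 and chr7:116499488-116499737 for CAV2.
CAV1: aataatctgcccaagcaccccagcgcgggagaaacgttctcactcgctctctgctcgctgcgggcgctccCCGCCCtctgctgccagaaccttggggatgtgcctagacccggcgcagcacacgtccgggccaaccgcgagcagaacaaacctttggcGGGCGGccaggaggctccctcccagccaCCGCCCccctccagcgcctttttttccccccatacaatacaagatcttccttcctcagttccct
CAV2: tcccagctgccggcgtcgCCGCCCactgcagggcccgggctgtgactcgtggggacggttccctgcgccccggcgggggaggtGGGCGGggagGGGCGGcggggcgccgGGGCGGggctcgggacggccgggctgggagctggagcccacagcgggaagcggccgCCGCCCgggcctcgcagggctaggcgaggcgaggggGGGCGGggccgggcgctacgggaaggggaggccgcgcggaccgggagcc
The CAV1 window held 3 GC boxes and the CAV2 window 6, and 41.7% of 24885 windows of this length held at least 1. GC content was 63.6% in the CAV1 window and 83.2% in the CAV2 window, the latter above 99% of windows. Neither window held the TEAD core GGAATG on either strand, which 12% of windows held, or the AP-1 letters TGANTCA, which 6.67% held.

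CAV1 was the more abundant caveolin in all libraries. In Par cells it was at 994, 1186 and 1219.5 CPM in replicates 1, 2 and 3. LM2 libraries were at 550, 969.7 and 876 CPM, and BrM2 libraries at 442, 676 and 598. Every library of either sub-population was thus below every Par library, while LM2 replicate 1 fell within the range of BrM2. In edgeR's quasi-likelihood test, CAV1 fell by 0.99 on the log2 scale in BrM2 compared with Par, with a standard error (SE) of 0.25 and an adjusted p of 0.033, to 50.5% of the Par level. The call was lost when any 1 of 7 libraries was left out. The adjusted p was 0.056, 0.11 and 0.11 without Par replicate 1, 2 or 3, 0.051 without LM2 replicate 3, and 0.084, 0.054 and 0.11 without BrM2 replicate 1, 2 or 3, with log2 fold changes of -1.12 to -0.83. CAV1 and CAV2 stand in the study's pathway gene lists of enhancer-linked genes with lower expression in BrM2, and CAV2 in such a list for LM2. These lists were drawn from the same libraries, so that the values here are not independent evidence of that direction.

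The difference of LM2 from Par in CAV1 was -0.51 ± 0.25 (log2 fold change ± SE) with an adjusted p of 0.32. Libraries of the same replicate number varied together in all lines, and a fit with the replicate number as a block was therefore made beside the first. With the block, CAV1 had log2 fold changes of -0.54 ± 0.13 in LM2 (adjusted p = 0.0068) and -1.01 ± 0.13 in BrM2 (adjusted p = 1e-04). BrM2 compared with LM2 gave -0.47 ± 0.13 with the block (adjusted p = 0.014) and -0.48 ± 0.25 without it (adjusted p = 0.33). The blocked difference between BrM2 and LM2 had adjusted p-values of 0.1, 0.068 and 0.075 without LM2 replicate 2, LM2 replicate 3 or BrM2 replicate 3. Within replicate numbers 1, 2 and 3, the CAV1 level of LM2 was 55.3%, 81.8% and 71.8% of Par, and that of BrM2 was 44.5%, 57% and 49% of Par. All 6 of these levels were below Par, which follows from the lack of overlap with the Par libraries.

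CAV2 had larger differences than CAV1 and passed the test in both sub-populations. The Par libraries were at 214, 233 and 248 CPM in replicates 1, 2 and 3. LM2 libraries were at 72.3, 104 and 84.8 CPM, and BrM2 libraries at 71.8, 75.5 and 87.0. The lowest Par library was above the highest library of LM2 and BrM2, and the sub-populations overlapped each other. CAV2 fell by 1.41 on the log2 scale in LM2 (SE 0.19, adjusted p = 0.0021), to 37.6% of Par, and by 1.57 in BrM2 (SE 0.19, adjusted p = 0.00086), to 33.8% of Par. Both calls held without any single library, with adjusted p-values up to 0.014 in LM2 and 0.0063 in BrM2. BrM2 and LM2 differed by -0.16 in CAV2, with a 95% interval of -0.58 to 0.27 on the log2 scale, and by 0.006 without replicate number 2.

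Among the cavins, none passed the test without the block. CAVIN1 (chr17:42402449-42423256, minus strand) was at 931, 672 and 545 CPM in Par replicates 1, 2 and 3, at 1192, 640.0 and 634 CPM in LM2 and at 1230.3, 766 and 786 CPM in BrM2. The ranges of the 3 lines overlapped, and replicate 1 was the highest library in each. The BrM2 library was above the Par library of the same number in 3 of 3 pairs, at 132%, 114% and 144% of Par. The log2 fold change in BrM2 was 0.37 ± 0.33 (adjusted p = 0.58) and, with the replicate block, 0.37 ± 0.12 (adjusted p = 0.027). With the block, the adjusted p was 0.096 without Par replicate 1, 0.15 without Par replicate 3 and 0.15 without BrM2 replicate 3. In LM2 the log2 fold change was 0.20, with a 95% interval of -0.54 to 0.94, and it was -0.17 without LM2 replicate 1.

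CAVIN2 (chr2:191834310-191847088, minus strand), also known as the serum deprivation response protein, had libraries at 27.5, 43.7 and 47.6 CPM in Par, 41.2, 45.2 and 41.4 in LM2 and 47.8, 47.9 and 54.3 in BrM2. Every BrM2 library was above every library of the other lines, the lowest by a small margin over Par replicate 3. The log2 fold change of BrM2 against Par was 0.33 ± 0.22 (adjusted p = 0.43), and 0.36 ± 0.16 with the block (adjusted p = 0.091). The window before CAVIN2, chr2:191847089-191847338 in GRCh38.p14, is shown because it differed from the other member windows found, with the TEAD core in capitals.
CAVIN2: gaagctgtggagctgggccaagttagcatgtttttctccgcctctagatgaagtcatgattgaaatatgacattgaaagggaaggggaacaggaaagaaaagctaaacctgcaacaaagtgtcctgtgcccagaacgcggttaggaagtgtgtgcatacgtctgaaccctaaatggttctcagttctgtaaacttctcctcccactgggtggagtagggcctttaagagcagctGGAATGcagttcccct
It held 1 TEAD core and no GC box, and its GC content was 48.0%, compared with a median of 57.6% over all windows. The EHD2 and PACSIN2 windows, not shown, held 1 and 2 GC boxes at 69.6% and 68.0% GC. Neither held the TEAD core or the AP-1 letters, so that this pattern was not particular to the caveolins. CAVIN3 (chr11:6318946-6320501, minus strand), a cavin that binds protein kinase C delta, was at 6.93, 8.37 and 2.08 CPM in Par, 5.32, 2.53 and 1.69 in LM2 and 8.64, 2.03 and 1.25 in BrM2. Its SD in BrM2, 4.06 CPM, was above its mean of 3.97 CPM, and all 3 ranges overlapped. The log2 fold changes of -0.87 ± 0.78 in LM2 and -0.57 ± 0.78 in BrM2 did not pass the test (adjusted p = 0.65 and 0.75), and the latter was 0.18 without replicate number 2. CAVIN3 shares 36.7% of its exon bases with a gene on the opposite strand, ENSG00000282556, and CAVIN2 shares 7.79% with CAVIN2-AS1; the strand that was counted is not given in the sources used here, and these genes had mean counts of 4.33 and 1.56 per library.

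The neck proteins had lower means in both sub-populations, without passing the test in the fit without the block. EHD2 (chr19:47713422-47743134, plus strand) was at 173, 148 and 124 CPM in Par, 171, 82.3 and 91.2 in LM2 and 143, 67.2 and 85.2 in BrM2. Replicate 1 of LM2 and of BrM2 lay within the Par range, and the other libraries of both lines lay below it. Its log2 fold change was -0.37 ± 0.36 in LM2 (adjusted p = 0.68) and -0.60 ± 0.36 in BrM2 (adjusted p = 0.37). With the block, EHD2 had -0.45 ± 0.16 in LM2 (adjusted p = 0.052) and -0.67 ± 0.16 in BrM2 (adjusted p = 0.0072).

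PACSIN2 (chr22:42869766-43015149, minus strand) was at 165, 152 and 122 CPM in Par, 127, 92.0 and 80.8 in LM2 and 153, 95.6 and 117 in BrM2. Only LM2 replicate 1 of the LM2 libraries reached the Par range. The LM2 level was 77.1%, 60.4% and 66.1% of Par within replicates 1, 2 and 3. The log2 fold change in LM2 was -0.55 ± 0.25 (adjusted p = 0.26), and -0.57 ± 0.14 with the block (adjusted p = 0.0084; 0.056 without LM2 replicate 3). In BrM2 it was -0.27, with a 95% interval of -0.83 to 0.30. PACSIN2 shares 3.4% of its exon bases with ARFGAP3 on the same strand, which had a mean count of 939.

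Read over the 7 genes, 1 was called in LM2 compared with Par (CAV2), 2 in BrM2 compared with Par (CAV1 and CAV2) and 0 in BrM2 compared with LM2. At an adjusted p of 0.05, 8.69%, 13.3% and 8.1% of all genes tested were called in these comparisons. With the replicate block, 3, 4 and 1 of the 7 were called, where 34.5%, 42.7% and 37.5% of all genes were. The blocked calls were CAV1, CAV2 and PACSIN2 in LM2, CAV1, CAV2, EHD2 and CAVIN1 in BrM2, and CAV1 in BrM2 compared with LM2. In BrM2 compared with LM2, no member had an unadjusted p under 0.05 without the block, and DESeq2 called none. Libraries of the lines did not overlap in 2, 3 and 1 members, while this was so for 25.2%, 31.3% and 23.1% of all genes. The median log2 fold change of the members was -0.51 in LM2 and -0.57 in BrM2, beside 0.01 and -0.02 over all genes tested. These medians are the values of CAV1 in LM2 and CAVIN3 in BrM2, and neither was called there without the block. In both, 5 of the 7 members were below 0, while CAVIN1 and CAVIN2 were above 0. Between BrM2 and LM2 the median was 0.17, beside -0.03. The 2 comparisons with Par use the same Par libraries, so that their values are not independent of each other.

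**Figure D2:**
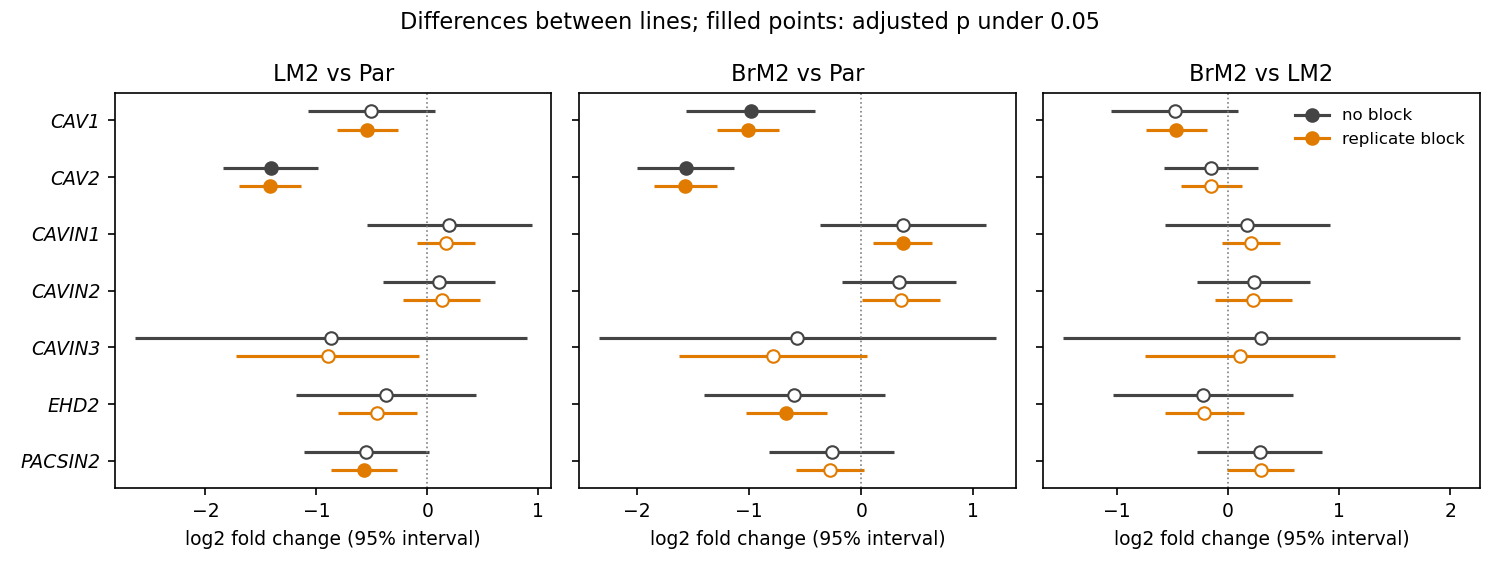
Log2 fold change (x axis, with 95% intervals) of the 7 genes in each comparison, from the fit without the replicate number (grey) and with it as a block (orange); filled points have an adjusted p under 0.05. The point estimates lie close together in both fits, and the intervals are narrower with the block, which adds PACSIN2 in LM2, CAVIN1 and EHD2 in BrM2 and CAV1 in LM2 and in BrM2 compared with LM2.

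The balance between the components was then examined inside each library, where scaling between libraries has no part. There were 4.65 to 5.09 CAV1 counts per CAV2 count in Par, 7.60 to 10.3 in LM2 and 6.16 to 8.95 in BrM2. No LM2 or BrM2 library reached the Par ratio: the log2 ratio of CAV2 to CAV1 was -2.29 ± 0.07 (SD, n = 3) in Par, -3.17 ± 0.23 in LM2 and -2.86 ± 0.28 in BrM2. With 3 libraries against 3, the smallest p of the 2-sided exact permutation test is 0.1, which both of these differences had (adjusted p = 0.36 over 18 tests), and the test cannot reach 0.05.

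For the main cavin, CAV1 counts per CAVIN1 count were 1.07, 1.77 and 2.24 in Par replicates 1, 2 and 3. They were 0.462, 1.52 and 1.38 in LM2 and 0.359, 0.883 and 0.761 in BrM2. All BrM2 libraries were thus below 1 and all Par libraries above 1, and LM2 replicate 1 lay apart from the other LM2 libraries. These counts were not divided by transcript length, which is 2456 bases for CAV1 and 3570 for CAVIN1. A ratio of 1 therefore does not mark equal abundance of the 2 transcripts. The ratio of CAVIN1 to CAV1 was 2.59-fold higher in BrM2 than in Par, a difference of 1.38 on the log2 scale that was 1 to 1.57 within replicate numbers (exact permutation p = 0.1, adjusted p = 0.36). CAVIN2 relative to CAV1 was 2.59-fold higher in BrM2 and 1.61-fold higher in LM2 than in Par, without overlap of libraries in either (exact permutation p = 0.1 each, adjusted p = 0.36). All these ratios share the CAV1 counts and are not independent of each other. Between BrM2 and Par, CAV1 itself differed by -0.99 on the log2 scale. CAVIN1 and CAVIN2 differed by 0.37 and 0.33, and neither was called without the block. The ratios of CAVIN3, EHD2 and PACSIN2 to CAV1 overlapped between lines in all comparisons. Within replicate numbers, however, PACSIN2 relative to CAV1 was higher in BrM2 in 3 of 3 pairs, by 0.58 to 1.08 on the log2 scale against LM2 and by 0.14 to 1.07 against Par. EHD2 relative to CAV1 was higher in BrM2 than in LM2 by 0.05 to 0.45 within numbers, and CAVIN3 by 0.12 to 1.02.

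**Figure D3:**
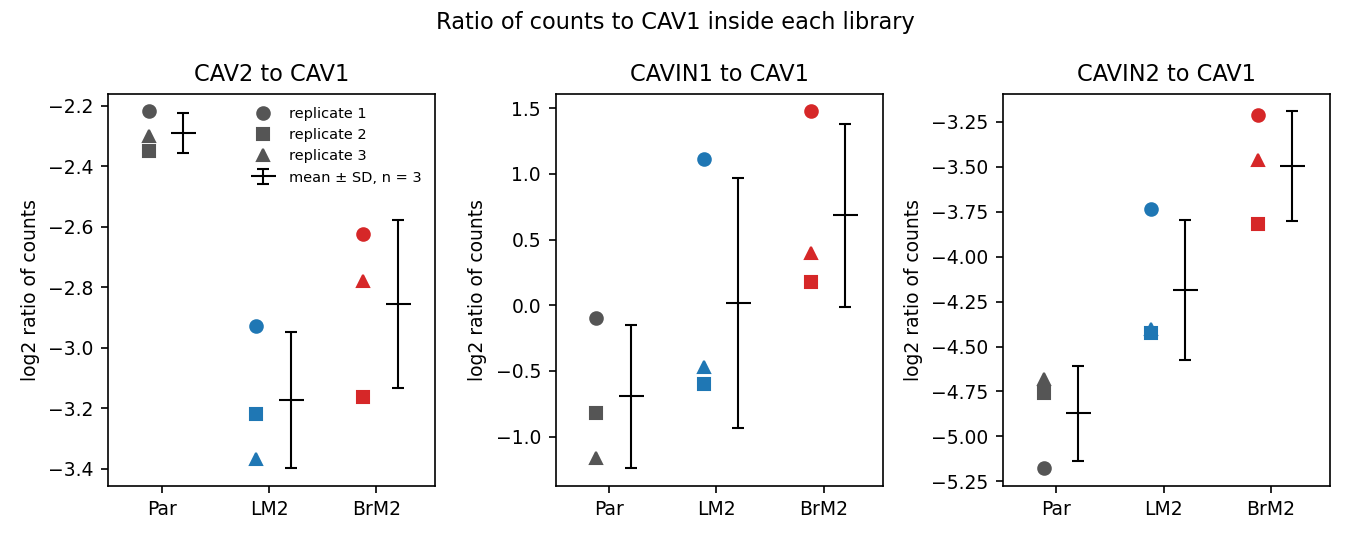
Log2 ratio of CAV2, CAVIN1 and CAVIN2 counts to CAV1 counts within each library (y axis) by line (x axis); symbols give the replicate number and black marks the mean ± SD of 3 libraries. CAV2 relative to CAV1 is highest in Par, whereas CAVIN1 and CAVIN2 relative to CAV1 are lowest in Par and highest in BrM2 by their means.

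The members also varied with the replicate number. When replicate 1 was compared with replicates 2 and 3 across the lines, a comparison added after the data were seen, CAVIN3 was higher by 1.48 ± 0.32 (log2 fold change ± SE, adjusted p = 0.0016), EHD2 by 0.75 ± 0.14 (adjusted p = 0.00059), CAVIN1 by 0.73 ± 0.10 (adjusted p = 0.00011) and PACSIN2 by 0.45 ± 0.12 (adjusted p = 0.005). CAV1 was lower, at -0.51 ± 0.11 (adjusted p = 0.0017), and CAV2 and CAVIN2 had values of -0.24 ± 0.11 and -0.29 ± 0.14 that did not pass (adjusted p = 0.066 and 0.082). Thus 5 of the 7 members were called, and 72.6% of all genes were, a share like that of the members. The direction went with the base composition of the transcript: the GC content was 36.3% for CAV2, 40.9% for CAV1 and 42.9% for CAVIN2, and 53.3% for PACSIN2, 59.2% for CAVIN1, 61.2% for EHD2 and 66.7% for CAVIN3, beside a median of 47.8% over the genes tested. Over 12989 genes, which are not independent replicates, the Spearman correlation of GC content with the replicate 1 difference was 0.81. Every line holds 1 library of each number, so that the line and the replicate number are not confounded. The part of GC content in these values was not tested.

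**Figure D4:**
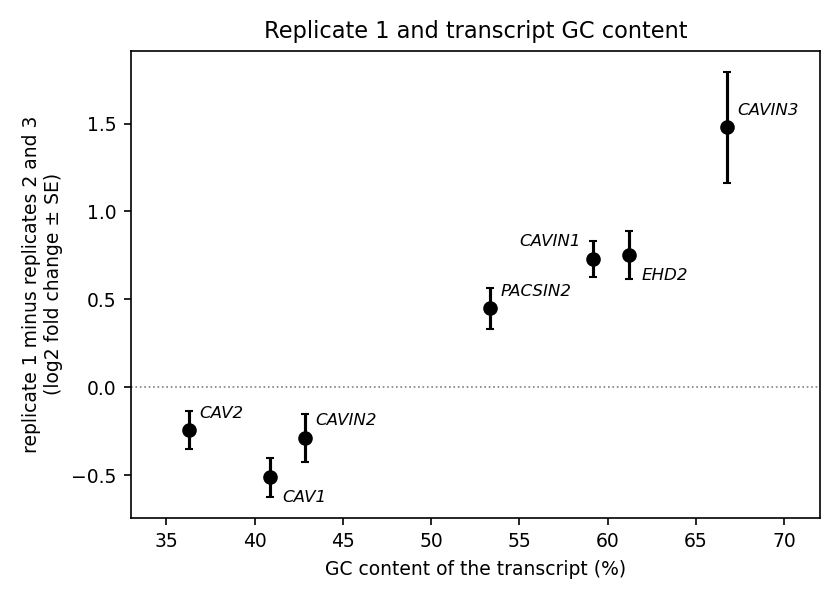
GC content of the transcript (x axis, percent) against the log2 fold change ± SE of replicate 1 compared with replicates 2 and 3 over the 3 lines (y axis) for the 7 genes. CAV1, CAV2 and CAVIN2, at 36.3% to 42.9% GC, lie below 0, and PACSIN2, CAVIN1, EHD2 and CAVIN3, at 53.3% to 66.7%, lie above 0.

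CAV1 and CAV2 have 3 further protein-coding neighbors with a lower mean in the sub-populations. Of the 18 genes whose start lies within 1 Mb of the CAV1 start, 5 passed the filter. TES, which encodes the focal adhesion protein testin and starts 314 kb before CAV1, was at 134 ± 11.4 CPM (SD, n = 3) in Par, 85.3 ± 10.6 in LM2 and 76.6 ± 10.7 in BrM2. It fell by 0.81 on the log2 scale in BrM2 (SE 0.18, adjusted p = 0.02), and in LM2 it had -0.65 ± 0.18 (adjusted p = 0.064; 0.0019 with the block). CAPZA2, an actin capping protein 338 kb after CAV1, had -0.66 ± 0.35 in LM2 and -0.96 ± 0.35 in BrM2 (adjusted p = 0.35 and 0.12; with the block 0.0048 and 0.00042). MET, the receptor of hepatocyte growth factor, lies between them and was at 204 ± 49.0 CPM in Par, 96.8 ± 39.0 in LM2 and 172 ± 63.6 in BrM2. Its log2 fold change was -1.08 ± 0.39 in LM2 and -0.25 ± 0.39 in BrM2 (adjusted p = 0.15 and 0.78; with the block 0.00013 and 0.1). ST7, 428 kb after CAV1, had 0.15 ± 0.20 and -0.15 ± 0.20. Of the 5 neighbors, CAV2 counted, 0 rose and 1 fell in LM2 and 0 rose and 2 fell in BrM2 without the block. The calls were CAV2 in both and TES in BrM2, beside 8.69% and 13.3% of all genes called. With the block, 0 rose and 4 fell in LM2 and 0 rose and 3 fell in BrM2, beside 34.5% and 42.7%. CAV2, itself a member, had the largest fall of the 5 in both comparisons.

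**Figure D5:**
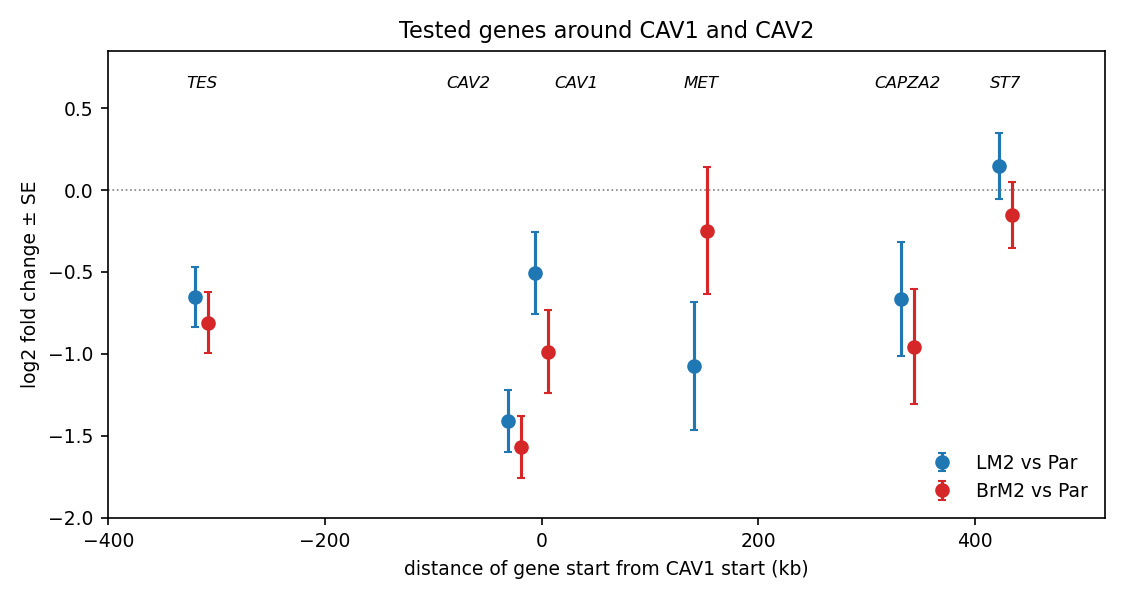
Log2 fold change ± SE, without the block (y axis), of CAV1 and the 5 tested genes around it against the distance of their start from the CAV1 start (x axis, kb), for LM2 (blue) and BrM2 (red) compared with Par. From TES to CAPZA2 all values lie below 0, with CAV2 the lowest, and ST7 lies around 0.

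Of 46 tested neighbors of CAVIN1, 3 rose and 1 fell in LM2, and 3 rose and 0 fell in BrM2 compared with Par. Of all genes tested, 8.69% and 13.3% were called in these comparisons. With the block the neighbor counts were 10 and 6 in LM2 and 16 and 4 in BrM2, where 34.5% and 42.7% of all genes were called. The same shares belong beside the counts below for the other members. The called genes included FKBP10, a collagen chaperone 589 kb away, at 0.507 CPM in Par, 113 in LM2 and 27.6 in BrM2. The others named for CAVIN1 by the size of their change were the keratin KRT19 (-2.18 in LM2), P3H4 (1.86 in LM2) and HSD17B1 (1.14 in LM2). Near CAVIN3, TRIM5 rose by 1.03 and TPP1, a lysosomal peptidase, fell by 0.94 on the log2 scale in BrM2. Near EHD2, CARD8-AS1 rose by 1.55 in LM2 and by 1.35 in BrM2, KCNJ14 rose by 1.44 in LM2 and by 1.27 in BrM2, and ZNF114 fell by 2.06 in LM2. Near PACSIN2, PHETA2 fell by 2.60 in LM2. None of the 4 tested neighbors of CAVIN2 was called in any comparison by edgeR without the block. With it, 3 fell in LM2 and 2 in BrM2 compared with Par. Between BrM2 and LM2, 1 was higher in BrM2, where 37.5% of all genes were called with the block. With the block, 2 rose and 3 fell in LM2 and 1 rose and 3 fell in BrM2 of 15 neighbors of CAVIN3, 4 and 7 in LM2 and 5 and 4 in BrM2 of 33 neighbors of EHD2, and 1 and 6 in LM2 and 2 and 2 in BrM2 of 18 neighbors of PACSIN2.

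Accessory proteins of caveolae were read from a list of 14 genes, of which 13 were tested. In LM2, 1 rose and 2 fell, and in BrM2 2 rose and 0 fell compared with Par, where 8.69% and 13.3% of all genes were called. EHD3, a relative of EHD2 with a role in endosomal recycling, was at 5.75 ± 1.64 CPM (SD, n = 3) in Par, 0.475 ± 0.164 in LM2 and 12.3 ± 0.855 in BrM2. It fell by 3.57 on the log2 scale in LM2 (SE 0.33, adjusted p = 0.00037) and rose by 1.10 in BrM2 (SE 0.28, adjusted p = 0.033), and BrM2 and LM2 differed by 4.67 ± 0.34 (adjusted p = 0.00011). EHD1 and EHD4, the remaining relatives, passed in no comparison without the block. With it, EHD1 had -0.55 in BrM2 compared with Par and -0.48 compared with LM2 (adjusted p = 0.024 and 0.044), and EHD4 had 0.61 in LM2 and 0.39 in BrM2 (adjusted p = 0.0041 and 0.031). ROR1, a receptor tyrosine kinase-like protein that holds CAV1 and CAVIN1 together, was at 68.7 ± 1.94 CPM in Par, 19.6 ± 4.93 in LM2 and 50.9 ± 13.9 in BrM2. It fell by 1.81 in LM2 (adjusted p = 0.0034) and was higher in BrM2 than in LM2 by 1.38 on the log2 scale (adjusted p = 0.013); between BrM2 and Par it had -0.43 (adjusted p = 0.37; 0.026 with the block). FYN, a SRC family kinase that phosphorylates caveolin, rose in LM2 by 0.88 and in BrM2 by 0.93 (adjusted p = 0.011 and 0.0062). DNM2, the dynamin of vesicle scission, had log2 fold changes of -0.001 in LM2 and 0.05 in BrM2. With the block, 2 rose and 5 fell in LM2 and 3 rose and 5 fell in BrM2, where 34.5% and 42.7% of all genes were called.

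Receptors, channels and lipid transporters that are often placed in caveolae formed a list of 14, of which 10 were tested. In LM2 0 rose and 3 fell, and in BrM2 1 rose and 2 fell, beside 8.69% and 13.3% of all genes called. With the block, 0 rose and 4 fell in LM2 and 1 rose and 4 fell in BrM2, beside 34.5% and 42.7%. AQP1, a water channel, was at 12.7 ± 5.19 CPM (SD, n = 3) in Par, 2.41 ± 1.26 in LM2 and 1.72 ± 0.753 in BrM2, and fell by 2.40 on the log2 scale in LM2 and fell by 2.90 in BrM2 (adjusted p = 0.016 and 0.0058). PDGFRB, a platelet-derived growth factor receptor, fell by 2.26 in LM2 and by 1.85 in BrM2 (adjusted p = 0.0067 and 0.012). The insulin receptor INSR fell by 0.77 in LM2 (adjusted p = 0.036), and in BrM2 it had -0.52 (adjusted p = 0.12; 0.007 with the block). EGFR rose by 0.95 in BrM2 (SE 0.21, adjusted p = 0.017), from 316 ± 21.4 to 608 ± 116 CPM. No gene of the list passed between BrM2 and LM2 without the block, and 3 did with it, beside 8.1% and 37.5% of all genes called.

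Caveolin and cavin genes are known targets of the YAP and TEAD transcription factors, and 15 genes of that pathway were all tested. In LM2 0 rose and 1 fell, and in BrM2 2 rose and 0 fell compared with Par, shares close to the 8.69% and 13.3% of all genes called. The target CCN2 was at 217 ± 26.6 CPM (SD, n = 3) in Par, 355 ± 87.3 in LM2 and 513 ± 43.3 in BrM2, and rose by 1.24 on the log2 scale in BrM2 (SE 0.21, adjusted p = 0.005). TEAD4 rose by 1.29 in BrM2 (SE 0.35, adjusted p = 0.04). ANKRD1, another target, fell by 1.45 in LM2 (adjusted p = 0.033) and was higher in BrM2 than in LM2 by 1.65 (adjusted p = 0.02). WWTR1, the YAP relative known as TAZ, differed by -0.99 on the log2 scale between BrM2 and LM2 (adjusted p = 0.017). YAP1 itself had log2 fold changes of -0.03 in LM2 and -0.30 in BrM2 (adjusted p = 0.98 and 0.7). With the block, 7 rose and 2 fell in LM2 and 3 rose and 3 fell in BrM2, beside 34.5% and 42.7% of all genes. The median of the list was 0.24 in LM2 and 0.02 in BrM2.

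Among 11531 genes with a mean of at least 50 counts, the profiles nearest to each member over the 9 libraries were found by the root mean square difference of centered log2 CPM. For CAV1 these were SYPL1 (0.08 on the log2 scale) and SLC30A1 (0.09), where CAV1 itself had an SD of 0.49 and the median gene was 0.65 away. For CAV2 they were the actin-binding TMSB4X (0.15) and ULK2 (0.16), and CAV1 was 0.40 away from CAV2. For CAVIN1 they were MEPCE and RNPS1 (0.05 each), and for CAVIN2 PPP1R21 and WASHC2A (0.14 each). EHD2 was nearest to CD276 and SLC45A3 (0.11 and 0.12), PACSIN2 to PITPNM2 and ITPR3 (0.07 and 0.08), and CAVIN3 to FTH1 and C9orf16 (0.29 and 0.34). Among the members, EHD2 and PACSIN2 were the nearest pair at 0.28, and CAV1 and CAVIN1 were 0.83 apart. These distances between members include the differences between replicate numbers. Replicate 1 differed by 0.75 in EHD2 and 0.45 in PACSIN2, and by -0.51 in CAV1 and 0.73 in CAVIN1. When profiles were centered within each replicate number, TMSB4X stayed among the 2 nearest for CAV2 and ITPR3 for PACSIN2, and the other nearest genes changed.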

How the data were processed

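RNA-seq libraries of 3 lines with 3 replicates each were analyzed, grouped by their titles. The authors isolated RNA with miRNeasy, prepared TruSeq stranded mRNA libraries, sequenced paired ends, and aligned reads to hg38 with STAR v2.7.0; the submitters' processing notes also name CASAVA 1.8.2. The authors deposited raw counts per gene without normalization, and a table of their DESeq2 fold changes and p-values, which was not used. Of 58887 rows, 3 that repeated an earlier identifier were left out. The counting strand is not given in the sources used here. Per library, 3 counts correspond to 0.11 to 0.22 CPM.

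Genes were filtered after HTSFilter (largest normalized count of at least 47.15, which kept 13055 genes) and tested with the 2-sided quasi-likelihood test of edgeR 4.0.16 (TMM, all 9 libraries, line as the only term, Benjamini-Hochberg over all genes, threshold 0.05). CPM are TMM-normalized. SEs were computed as the log2 fold change divided by the square root of F. Scripts were tested on simulated data. The study's methods name no block. The deviations of same-numbered libraries from their line means correlated at 0.23 to 0.90 in all 9 pairs, so the numbers were taken from the data as pairing the libraries, and blocked values are given beside the members and the list counts. The common dispersion was 0.11 without the block and 0.021 with it.

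Positions (RefSeq, GRCh38.p14) were matched by symbol, and transcript length and GC content (GENCODE) by gene identifier. RefSeq promoter windows were found for 5 of the 7 genes. The text names the 7 members, up to 4 called genes of each list and comparison with the largest change, up to 4 called neighbors per member within 1 Mb, the tested neighbors of CAV1, and the 2 nearest profiles of each member; EHD1, EHD4, DNM2, YAP1, MET, CAPZA2 and ST7 were named after their values were seen. The members and lists were chosen with earlier results of these data known. Alternatives were RLE scaling, no filter, DESeq2 1.42.0, the block, 6 libraries per comparison, and leaving out libraries or replicate numbers; the block without single libraries was chosen after seeing the data. R 4.3.3 and Python 3.11.15 were used.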

Additional observations from a re-analysis of the deposited data

How the results depend on the processing

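With the replicate block, 3 members passed in LM2 and 4 in BrM2 compared with Par and 1 in BrM2 compared with LM2, instead of 1, 2 and 0. In the same order, accessory proteins past the threshold numbered 7, 8 and 6 instead of 3, 2 and 2, receptors and transporters 4, 5 and 3 instead of 3, 3 and 0, and TEAD pathway genes 9, 6 and 9 instead of 1, 2 and 2. The tested genes of these lists numbered 13, 10 and 15. Of all genes, 34.5%, 42.7% and 37.5% were called with the block instead of 8.69%, 13.3% and 8.1%. With the block and without single libraries, the members called ranged from 2 to 5, from 3 to 5 and from 0 to 2. Without the block, leaving out 1 library gave 1 member in LM2, 1 to 2 in BrM2 and 0 between them. Without replicate number 1, 4, 4 and 1 members passed, and without number 2 or 3 none did, where 53 to 274 of all genes passed. Over all alternatives, the genes called ranged from 70 to 5466 in LM2, from 159 to 5648 in BrM2 and from 53 to 5668 between them. The changes in member counts are therefore not read as a trait of the 7 genes. Without number 2 or 3, CAV2 had log2 fold changes of -1.54 to -1.30 in LM2 (adjusted p = 0.11 and 0.17). In BrM2 they were -1.54 to -1.53 (adjusted p = 0.081 and 0.072). The cause was not tested.

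RLE scaling, no filter, DESeq2 and the fit of 6 libraries kept every member on its side of the threshold in all comparisons. Over all genes, DESeq2 called 1893 genes in LM2 compared with Par and 1824 in BrM2 compared with LM2, beside 1134 and 1057, the fit of 6 libraries called 598 in the latter, and the block called 4510, 5577 and 4896, beside 1134, 1733 and 1057. No called member changed its direction under any alternative. The 95% interval of the CAVIN3 log2 fold change in LM2 was -2.64 to 0.90 without the block and -1.72 to -0.07 with it, at 26 to 173 counts per library.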
